A study of Homo sapiens with 22 samples.

Results

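The cytosolic ribosomal protein genes were followed through 3 acute myeloid leukaemia cell lines and the drugs given to them. The genes were taken by a name pattern that uses no values, but the pattern was chosen with earlier results of these data known. A gene was taken when its symbol was RPL or RPS followed by a number, with or without a closing A, X or L, or was RPLP0, RPLP1 or RPLP2. The rule took 80 of the 28063 gene symbols in the files, 31 of the small subunit (RPS) and 49 of the large subunit (RPL). All 80 matched a protein-coding gene of GENCODE v29 on the GRCh38 build. Of these, 79 had enough reads to be tested, and the other, RPL10L, had no read in any of the 22 libraries. RPSA and FAU encode further ribosomal proteins under other names and are described apart, as are the paralogues RPL7L1, RPL22L1, RPL26L1 and RPL36AL.

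Polyadenylated RNA was sequenced from THP-1, MV-4-11 and MOLM-13, leukaemia lines that carry KMT2A fusions and are labelled WT, in 11 groups of 2 libraries. Each line received DMSO, the solvent, or 1 µM BRM014, which blocks both catalytic subunits of SWI/SNF, the chromatin remodellers SMARCA2 and SMARCA4, for 24 h or for 72 h. THP-1 cells also received 10 nM PMA, a phorbol ester used to turn such cells into macrophage-like ones, for 48 h with 24 h of rest after its removal. A further THP-1 group received 3 µM DB2313, which inhibits PU.1, a transcription factor of myeloid cells, for 72 h. The DMSO libraries carry no time on their labels, so 1 DMSO group per line served both times, and time in culture cannot be told apart from time with BRM014. No label says whether the DB2313 libraries were prepared with the other THP-1 libraries, or whether replicates were separate cultures, so p-values reflect only the scatter of these libraries, which may be technical. Each library is a whole culture of 1 line, in which fewer cells of a kind and less RNA per cell cannot be told apart.

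A cytosolic ribosome is built from a small subunit that reads the messenger RNA and a large subunit that joins amino acids. Most of its proteins are needed in equal numbers, and growing cells spend a large part of their messenger RNA on them. Transcription factors such as MYC raise ribosome production in growing blood cells, and mTORC1 sets the translation of these messengers through the protein LARP1. LARP1 reads a run of pyrimidines that starts at the first base of the messenger, the 5′ terminal oligopyrimidine (TOP) tract, which ribosomal protein and elongation factor messengers share.

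The start sites of several genes that the results turn on are shown for that tract. Each line below gives the 20 bases before and the 10 bases from the start listed by RefSeq (GRCh38.p14), 5′ to 3′ on the gene's strand. Capitals mark the tract where the start has one, here a C followed by at least 4 bases that are each C or T, as far as the shown bases reach.
RPLP0: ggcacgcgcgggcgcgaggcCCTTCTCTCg
RPL12: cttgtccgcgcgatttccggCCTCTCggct
RPS12: ggcatgcgtgcggatgaggcCTCTTTCCCT
RPL22: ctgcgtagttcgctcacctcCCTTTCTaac
RPS27: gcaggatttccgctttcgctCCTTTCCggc
RPS27L: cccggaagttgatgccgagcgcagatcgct
RPS26: gctgggagacacataacctcgattttcttc
These windows lie at chr12:120201102-120201131 on the minus strand for RPLP0, chr9:127451397-127451426 (minus) for RPL12, chr6:132814549-132814578 (plus) for RPS12, chr1:6199586-6199615 (minus) for RPL22, chr1:153990742-153990771 (plus) for RPS27, chr15:63157468-63157497 (minus) for RPS27L and chr12:56041898-56041927 (plus) for RPS26. RPLP0, RPL12, RPS12, RPL22 and RPS27 start with the tract, while the listed starts of RPS27L and RPS26 do not. Of the 63 ribosomal protein genes with an entry, 45 (71.4%) had the tract at a listed start, beside 5.14% of 27305 genes with an entry.

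Other short motifs were counted on both strands in the window from 250 bases before to 50 bases after each start. The core of YY1 sites, GATGGCG, was in 17 of the 63 (27.0%, beside 5.11% of all genes), and the ETS site CCGGAAGT in 10 (15.9%, beside 4.95%). The E-box CACGTG that MYC can bind was in 4 (6.35%, beside 8.77%), and the ETS site of the kind PU.1 prefers, GAGGAAGT, also in 4 (6.35%, beside 3.15%). The GC box GGGCGG was in 37 (58.7%, beside 48.3%) and the TATA box TATAAA in 6 (9.52%, beside 14.0%). A match describes these letters only and was not tested as a site. The ETS motifs share GGAAGT, so that at a given place only one of them can match.

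The libraries held 15893489 to 21565666 reads in genes. Levels are read counts scaled to 1000000 reads in genes (CPM), which are shares of the messenger RNA and not amounts per cell. Ribosomal protein genes were among the strongest signals: 64 of the 80 had at least 100 CPM in every library, and 20 had a median over 1000 CPM. Per kilobase of annotated exon, RPS2 was highest of the 80 in the median library, with 917 CPM per kb (range 438 to 1889). RPL8 (797) and RPS12 (785 CPM per kb in the median library) were close to it, with ranges that overlapped. The length used joins all annotated exons of a gene, for example 767 bases for RPS12 and 6172 for RPL13. The ranking therefore also depends on the annotation. At the other end, RPL10L had no read and RPL3L, the form of RPL3 made in heart and skeletal muscle, at most 1.25 CPM.

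Some members were counted at levels far under the rest. RPS9, RPS18, RPS10, RPL17 and RPL36A had medians of 10.2, 18.8, 1.24, 1.43 and 7.53 CPM, although their proteins belong to every ribosome. The readthrough rows RPL17-C18orf32, RPL36A-HNRNPH2 and RPS10-NUDT3 in the files had 0 reads in all 22 libraries, and the 28 pseudogene rows held 0.00838% to 0.0246% of gene reads. Why these genes were low was not tested. Their fold changes are given below as those of uncertain counts.

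The lines expressed blood-cell genes as labelled. PTPRC, CD33 and SPI1 were detected in every library, and the 8 myeloid markers summed to 489 to 10394 CPM. The highest sums were mostly LYZ, with 8300 and 8432 CPM in the PMA libraries. Other myeloid markers were low in places, such as FCER1G with 1.28 to 6.11 CPM in MOLM-13 and MPO with 1.22 and 1.92 in MV-4-11 after 72 h of BRM014. The 8 erythroid markers summed to at most 0.529 CPM, with HBA2 at 0 throughout. Summed lymphoid markers ran from 1.46 to 76.4 CPM and summed epithelial and fibroblast markers from 0.668 to 125 CPM, the first mostly NKG7 and the second mostly COL1A1, LUM and KRT8. Some of them moved with the treatments. NKG7 went from 42.8 and 51.7 CPM with DMSO to 1.33 and 1.54 after 72 h of BRM014 in MOLM-13, and COL1A1 from 0.501 and 0.742 to 114 and 122 in THP-1. LUM went from 2.89 and 2.30 to 26.5 and 26.4 CPM in MV-4-11 after 72 h, and KRT8 from 1.63 and 1.83 to 44.5 and 45.7 with DB2313 in THP-1. Of the 8 myeloid markers 6, 6 and 7 fell after 72 h of BRM014 in MOLM-13, MV-4-11 and THP-1. Over all genes 29.4%, 26.1% and 28.0% fell. The other 2 rose in MOLM-13 and in MV-4-11, beside 30.3% and 28.4% of all genes. After 24 h 8, 5 and 5 fell in the same order, beside 23.5%, 22.4% and 24.1% of all genes. In MV-4-11 1 rose then, beside 23.6%. At 24 h most ribosomal protein genes fell in MOLM-13 and MV-4-11, and 5 of 79 in THP-1. The part of these markers in the results was not tested.

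The share of reads in ribosomal protein genes fell with BRM014 in MOLM-13 and MV-4-11. In MOLM-13 the share was 12.1% and 12.9% with DMSO, 7.76% and 7.40% after 24 h and 4.68% and 4.78% after 72 h. In MV-4-11 it was 10.7% and 11.0%, then 7.68% and 7.20%, then 4.02% and 4.22%. In both lines the 3 groups did not overlap, and their order from high to low was DMSO, 24 h, 72 h. THP-1 began lower, at 5.95% and 6.01%, had 6.11% and 5.64% after 24 h, on either side of DMSO, and 4.73% and 4.96% after 72 h, below it.

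**Figure D1:**
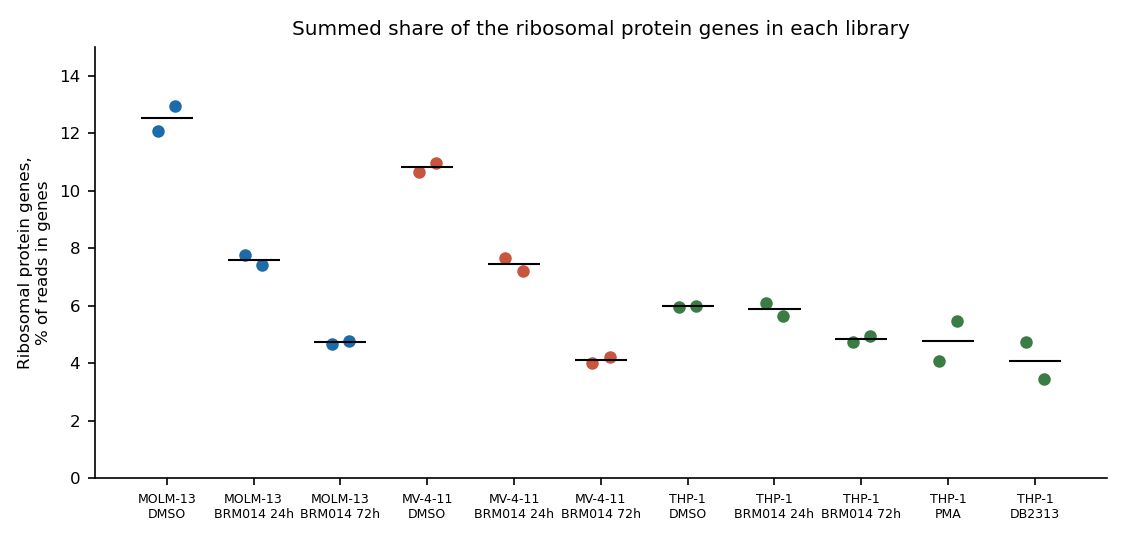
Summed share of gene reads in the 80 ribosomal protein genes, in percent, for each of the 22 libraries (points) by group, with the mean of the 2 libraries as a line. MOLM-13 falls from 12.5% to 4.73% and MV-4-11 from 10.8% to 4.12% over 72 h of BRM014, while THP-1 falls from 5.98% to 4.85%.

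As group means the share went from 12.5% ± 0.608 (SD, n = 2) to 7.58% ± 0.250 and 4.73% ± 0.0696 in MOLM-13, and from 10.8% ± 0.201 to 7.44% ± 0.341 and 4.12% ± 0.147 in MV-4-11. In THP-1 the means were 5.98% ± 0.0409, 5.88% ± 0.336 and 4.85% ± 0.163. After 72 h of BRM014 the 3 lines thus lay between 4.12% and 4.85%, where with DMSO they had spanned 5.98% to 12.5%. The mean difference over the lines was -2.80 percentage points at 24 h (exact permutation test with treatment exchanged within each line, 216 arrangements, two-sided p = 0.0278, adjusted for 2 times 0.0278). At 72 h it was -5.20 points (same exact test, p = 0.00926, adjusted 0.0185), where 0.00926 is the smallest p the design allows. The 24 h test rested on 1 library: without THP-1 24 h replicate 2 its p was 0.0556, at -2.72 points.

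The share of reads outside annotated genes did not keep to 1 pattern beside the ribosomal protein share. In MOLM-13 it was 13.2% and 12.4% with DMSO, 13.0% and 13.6% after 24 h and 18.2% and 18.4% after 72 h. The ribosomal protein share there was already 7.76% and 7.40% after 24 h. In MV-4-11 the share outside genes was 14.3% and 13.8% with DMSO and 13.1% and 13.5% after 72 h. The ribosomal protein share fell there from 10.8% to 4.12%. In THP-1 the share outside genes was 16.5% and 15.8% with DMSO, 18.4% and 18.9% after 24 h and 19.2% and 18.8% after 72 h. The PMA libraries had 16.0% and 12.4%. The part of these reads in the results was not tested. The small subunit's part of all ribosomal protein reads stayed between 33.3% and 37.4% in the 22 libraries. In MOLM-13 the small subunit's part was 33.3% in both DMSO libraries and 35.3% and 35.4% after 72 h, and in MV-4-11 33.7% and 33.9% and then 34.0% and 34.1%.

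With DMSO alone the lines already differed in these genes. Differences are given on the log2 scale with their standard errors where ± stands, and p-values are edgeR quasi-likelihood p, adjusted over the 16794 genes tested by the Benjamini-Hochberg method. The level differed between lines for 73 of the 79 tested members (edgeR F test over the 3 lines, 78.9% of all genes called). Relative to MOLM-13, the median member was at -0.23 in MV-4-11 and at -1.22 in THP-1, and 76 of 79 were lower in THP-1. RPS28, a small-subunit protein, had 1162 and 1329 CPM in MOLM-13. It had 502 and 506 CPM in MV-4-11 but 96.3 and 102 in THP-1, with no overlap between lines (-3.80 for THP-1 against MOLM-13, adjusted p = 3.5e-11). RPL13A, whose introns carry small nucleolar RNAs, had 5757 and 6470.1, 3532 and 3525 and 1403 and 1439 CPM (-2.26 in THP-1 against MOLM-13, adjusted p = 3.3e-10). RPS27, RPL5, RPS25, RPS27A, RPS10 and RPL17 did not pass the test between lines.

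After 24 h of BRM014 nearly every ribosomal protein messenger was lower in MOLM-13. Of the 79 tested, 75 fell, beside 23.5% of all genes that fell, and 0 rose by edgeR, beside 22.7% (0 also at an unadjusted p under 0.05, and 0 by DESeq2). The median log2 fold change was -0.81, beside 0 over all genes, and 74 members had both BRM014 libraries below both DMSO libraries, as did 28.4% of all genes tested. All genes, here and below, were kept by 1 filter over the 11 groups and are not matched to the members in read level. Among the 4 that did not pass were RPS27L, RPL3L, which had no read in these 4 libraries, and the thinly counted RPS18. In MV-4-11 64 of 79 fell, beside 22.4% of all genes, 1 rose (23.6% of all genes rose) and the median was -0.56. In THP-1 5 fell and 2 rose, RPS27L and RPS9, beside 24.1% and 25.9% of all genes, with a median of -0.049 beside 0.039 over all genes. The RPS9 call (0.68 ± 0.27, adjusted p = 0.0449) rested on 68 and 72 reads with DMSO and 122 and 140 after 24 h. It was lost with DESeq2's size factors, TMM factors from the other genes, a minimum count of 50 or THP-1 alone, and without any of the 4 libraries compared (adjusted p = 0.0506 to 0.225). The THP-1 count moved with single libraries, to 2 without 24 h replicate 2 and to 13 without PMA replicate 1, which shares the estimate of spread, and to 23 without the PMA and DB2313 libraries.

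After 72 h the fall had deepened in the first 2 lines. In MOLM-13 77 of 79 fell, beside 29.4% of all genes, 0 rose by edgeR, beside 30.3% (0 at an unadjusted p under 0.05, 0 by DESeq2), and the median was -1.58. In MV-4-11 77 of 79 also fell, beside 26.1% of all genes, and the median was -1.39. In MV-4-11 0 rose by edgeR, beside 28.4% of all genes, with 1 at an unadjusted p under 0.05 and 0 by DESeq2. RPS27L and RPL3L were the exceptions in both lines. In THP-1 36 of 79 fell, beside 28.0% of all genes, 1 rose (30.9% of all genes rose), and the median was -0.33, beside 0.060 over all genes. Without the PMA and DB2313 libraries 60 fell in THP-1.

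**Figure D2:**
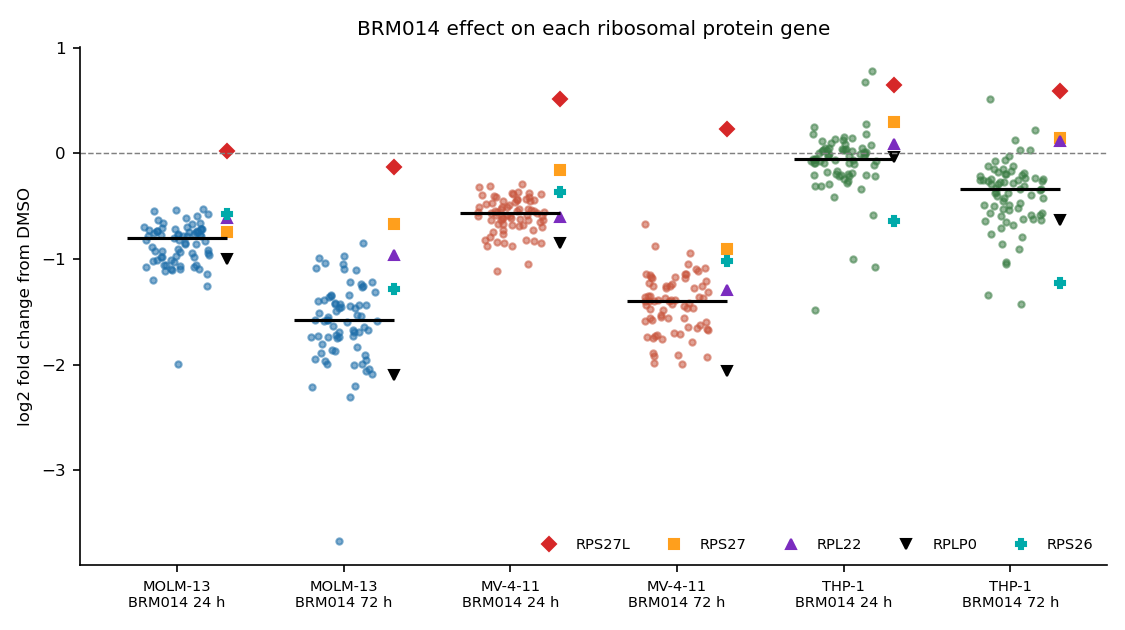
Log2 fold change from DMSO (y axis) of 78 ribosomal protein genes (points) after 24 h and 72 h of BRM014 in each line, with the median of the 79 tested as a line; RPL3L, with few or no reads, is not drawn. RPS27L lies at the top of the distribution in each column but the THP-1 24 h one, where RPS18 and RPS9 lie above it, and RPLP0 lies near the bottom after 72 h in MOLM-13 and MV-4-11.

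Genes of both subunits fell. After 72 h in MOLM-13 30 of 31 tested small-subunit genes fell (median -1.53) and 47 of 48 of the large subunit (median -1.61), and in MV-4-11 30 of 31 (-1.39) and 47 of 48 (-1.39). In THP-1 15 of 31 (-0.38) and 21 of 48 (-0.32) fell. Of the 70 members with a median level of at least 100 CPM, all 70 fell after 72 h in MOLM-13 and in MV-4-11, and 34 fell in THP-1.

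The stalk of the large subunit, which recruits elongation factors, had messengers that fell in MOLM-13 and MV-4-11. RPLP0, its base protein, had 3601 and 3677 CPM with DMSO, 2024 and 1945 after 24 h and 989 and 959 after 72 h in MOLM-13. In MV-4-11 it had 2848 and 2978, 1696 and 1706 and 717 and 739 CPM. The 3 groups of each of these lines did not overlap. RPLP0 fell by 2.09 ± 0.12 in MOLM-13 (adjusted p = 4.1e-12). It fell by 2.06 ± 0.12 in MV-4-11 (adjusted p = 8.5e-12), the largest fall of the 79 there. In THP-1 it had 1794 and 1862 CPM with DMSO, 1879 and 1809 after 24 h and 1220.0 and 1278 after 72 h, so that the first 2 overlapped and the last lay below (-0.63 ± 0.11, adjusted p = 7.9e-05).

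RPL12, which sits at the foot of that stalk, went the same way. It had 2100.2 and 1971 CPM with DMSO and 460.2 and 478 after 72 h in MOLM-13 (-2.31 ± 0.13, adjusted p = 2.4e-12). In MV-4-11 it went from 2347 and 2332 to 613 and 608 CPM and fell by 1.997 ± 0.13 (adjusted p = 3.0e-11). RPLP1 and RPLP2, the stalk's small acidic proteins, also fell after 72 h, with log2 fold changes of -1.74 ± 0.15 and -1.87 ± 0.19 in MOLM-13 and of -1.65 ± 0.15 and -1.55 ± 0.18 in MV-4-11. In THP-1 RPLP1 fell (-0.39 ± 0.14, adjusted p = 0.0234) and RPLP2 did not pass (-0.34 ± 0.18, adjusted p = 0.117), but the RPLP1 call was lost without either THP-1 DMSO library and without 72 h replicate 1 (adjusted p = 0.103, 0.053 and 0.167).

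RPS12, a protein of the small subunit's beak, fell furthest of the small-subunit genes of at least 100 CPM in MOLM-13. Its CPM went from 1675 and 1774 with DMSO to 1033 and 1006 after 24 h and 438 and 415 after 72 h (-2.21 ± 0.13, adjusted p = 1.2e-11). RPS2, a protein of the small subunit's body, had log2 fold changes of -1.92 ± 0.15 in MV-4-11 and -2.04 ± 0.15 in MOLM-13 after 72 h, both of which passed. RPL8, a core protein of the large subunit, went from 4639 and 5656 to 1325 and 1232 CPM in MOLM-13 (-2.20 ± 0.18, adjusted p = 9.2e-10). RPS10 had the lowest fold change in MOLM-13 at both times (-1.99 ± 0.65 and -3.67 ± 0.75), but on 34 and 43 reads with DMSO and 4 and 4 after 72 h. After 24 h RPL17 and RPS29 came next in MOLM-13 (-1.26 ± 0.40 and -1.20 ± 0.29), and in MV-4-11 the lowest were RPS10, which did not pass (-1.11 ± 0.55, adjusted p = 0.105), and RPL17 (-1.05 ± 0.38, adjusted p = 0.0272). The 24 h calls of RPL17 and RPS10 in MOLM-13 and of RPL17 in MV-4-11 were each lost on leaving out at least 1 of the libraries compared (adjusted p = 0.0705 to 0.202).

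Members with a function outside the ribosome fell with the rest. RPL5 and RPL11 bind 5S ribosomal RNA and, outside the ribosome, MDM2, a ubiquitin ligase. RPL5 went from 1777 and 1760.2 to 626 and 622 CPM in MOLM-13 (-1.69 ± 0.090, adjusted p = 1.4e-12) and from 1891 and 1978 to 686 and 685 in MV-4-11 (-1.56 ± 0.089, adjusted p = 8.3e-12). RPL11 went from 1352 and 1536 to 756 and 849.6 CPM in MOLM-13 (-1.04 ± 0.17, adjusted p = 1.7e-05) and from 1331 and 1339 to 569 and 656 in MV-4-11 (-1.18 ± 0.17, adjusted p = 4.4e-06). In both lines every treated library lay below every DMSO library for both genes. In THP-1 after 72 h RPL5 fell (-0.42 ± 0.087, adjusted p = 3.2e-04) and RPL11 did not pass (-0.25 ± 0.17, adjusted p = 0.209).

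RPS6, the substrate of the S6 kinases, had 2573 and 2698 CPM with DMSO and 868 and 921 after 72 h in MOLM-13 (-1.75 ± 0.11, adjusted p = 2.1e-11). In MV-4-11 it had 2388 and 2408 and 805 and 849 CPM (-1.59 ± 0.11, adjusted p = 1.3e-10), and in THP-1 1972 and 2089 and 1452 and 1451 (-0.57 ± 0.11, adjusted p = 1.3e-04). It was thus lower in all 3 lines, with no overlap. RPS27A, made as a fusion with ubiquitin, fell in each line, with log2 fold changes of -1.49 ± 0.20, -1.49 ± 0.20 and -0.49 ± 0.20 in the order MOLM-13, MV-4-11 and THP-1. Its THP-1 call was lost by DESeq2 (adjusted p = 0.0828), by scaling to library size (0.0705) and without THP-1 DMSO replicate 1 or either 72 h library (0.0591 to 0.198). RPL13A fell in MOLM-13 (-1.69 ± 0.16) and MV-4-11 (-1.45 ± 0.15) and did not pass in THP-1 (-0.25 ± 0.15, adjusted p = 0.169). RPL3, near the peptidyl transferase centre, also fell in the first 2 lines (-2.09 ± 0.11 and -1.76 ± 0.11) and did not pass in THP-1 (-0.20 ± 0.11, adjusted p = 0.106). RPL10, which joins the large subunit late, fell in all 3 (-1.54 ± 0.11, -1.62 ± 0.11 and -0.50 ± 0.11).

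Of the 64 members that fell in both MOLM-13 and MV-4-11 after 24 h, 5 also fell in THP-1, among them RPL14, RPL15, RPL36A and RPS26, beside 67.9% of all genes lower in both lines. After 72 h it was 36 of 77, beside 78.4%. The THP-1 counts depend on the fit. Without the PMA and DB2313 libraries 23 members fell there after 24 h and 60 after 72 h. The matching shares of all genes are not given for that fit. RPS26, which lies where the messenger leaves the ribosome, stood out in THP-1, with 228 and 217 CPM with DMSO, 153 and 141 after 24 h and 97.0 and 104 after 72 h. Its 3 groups did not overlap, and it fell by 0.64 ± 0.13 after 24 h (adjusted p = 3.2e-04). After 72 h the log2 fold change was -1.23 ± 0.13, adjusted p = 1.0e-07, beside -1.28 ± 0.13 in MOLM-13 and -1.01 ± 0.13 in MV-4-11, and a difference between the lines was not detected (edgeR F test, adjusted p = 0.408). RPL36A fell at both times in THP-1 (-1.08 ± 0.18 and -1.42 ± 0.18), on 260 and 271 reads with DMSO and 102 and 99 after 72 h. RPS10 and RPL17, also among the lowest there, did not pass (-1.001 ± 0.42, adjusted p = 0.0516, for RPL17 after 24 h, and for RPS10 -1.48 ± 0.63 and -1.34 ± 0.63).

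Apart from RPL3L, RPS27L was the one tested member that did not fall from the DMSO level in any line with BRM014. It is a paralogue of RPS27. In MOLM-13 it had 68.0 and 70.4 CPM with DMSO, 79.2 and 73.9 after 24 h and 68.8 and 75.9 after 72 h, with overlap between DMSO and 72 h but not between DMSO and 24 h. In MV-4-11 it had 70.3 and 69.8, 112 and 98.1 and 78.8 and 91.6 CPM, and in THP-1 46.7 and 43.3, 77.6 and 68.2 and 74.0 and 69.7. In these 2 lines every treated library was above every DMSO library. It rose in MV-4-11 after 24 h (0.51 ± 0.10, adjusted p = 2.4e-04) and in THP-1 at both times (0.65 ± 0.10, adjusted p = 2.4e-05; 0.59 ± 0.10, adjusted p = 5.4e-05), and did not pass in MOLM-13 (0.020 ± 0.10, adjusted p = 0.951; -0.13 ± 0.10, adjusted p = 0.296, or 0.064 scaled to library size alone) or in MV-4-11 after 72 h (0.23 ± 0.10, adjusted p = 0.0641), where it passed without 72 h replicate 1 and when scaled to library size alone (adjusted p = 0.0298 and 0.0163).

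RPS27 itself had one of the smallest falls. It had 815 and 950.1 CPM with DMSO, 611 and 541 after 24 h and 601 and 666 after 72 h in MOLM-13 (-0.67 ± 0.23, adjusted p = 0.0146). In MV-4-11 it had 788 and 799, 858 and 639.7 and 376 and 505 CPM, with DMSO inside the 24 h range (-0.15 ± 0.22, adjusted p = 0.637) and above the 72 h libraries (-0.91 ± 0.23, adjusted p = 0.00196). In THP-1 it did not pass (0.29 ± 0.23 and 0.15 ± 0.23). The MOLM-13 call was lost without DMSO replicate 2, without 72 h replicate 1 and when scaled to library size alone (adjusted p = 0.106, 0.0931 and 0.0613). As a percentage of RPS27 reads, RPS27L reads went from 8.34% and 7.41% with DMSO to 11.4% and 11.4% after 72 h in MOLM-13. In MV-4-11 they went from 8.91% and 8.73% to 20.9% and 18.1%, and in THP-1 from 6.33% and 6.55% to 9.74% and 7.87%. The libraries did not overlap in any of the 3 lines.

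**Figure D3:**
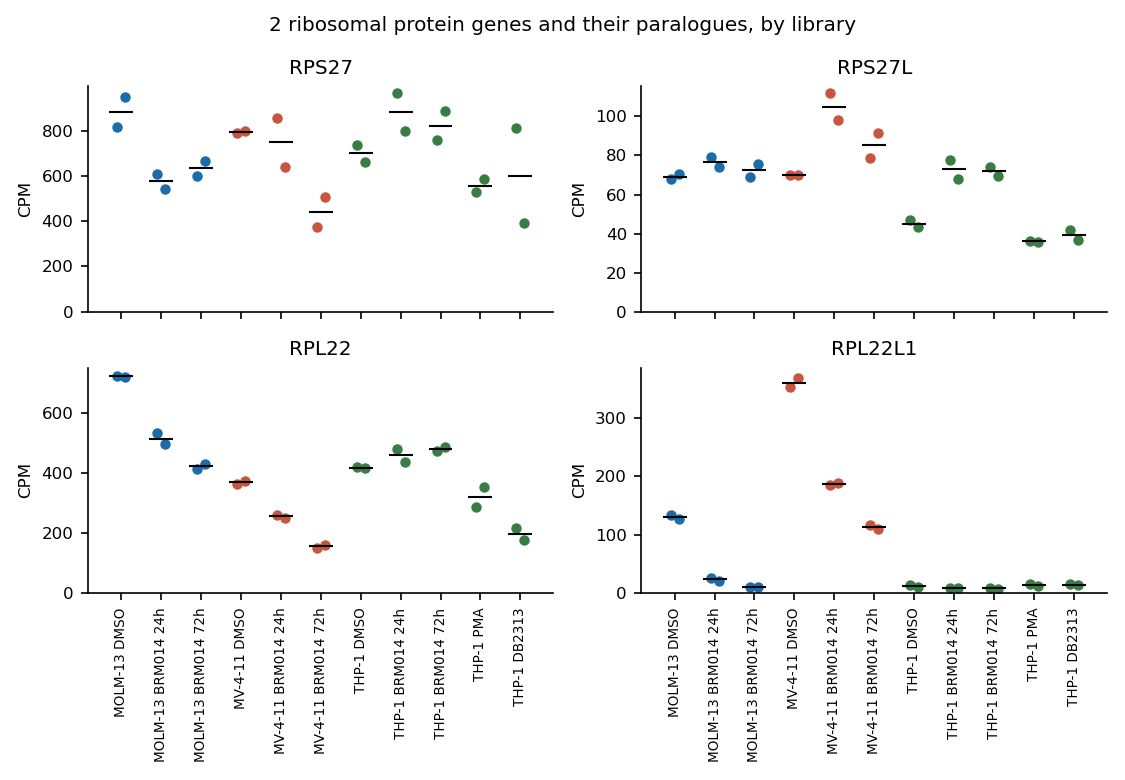
CPM of RPS27, RPS27L, RPL22 and RPL22L1 in each library (points) by group, with the group mean as a line and the y axis from 0 in each panel. RPS27L lies above DMSO in every BRM014 library of MV-4-11 and THP-1, while RPL22L1 lies below DMSO in every BRM014 library of the 3 lines.

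RPL22 and its paralogue RPL22L1, which lies outside the name rule, both fell in MOLM-13 and MV-4-11. RPL22 protein is known to hold down RPL22L1. RPL22 had 723 and 721 CPM with DMSO and 414 and 430.3 after 72 h in MOLM-13 (-0.97 ± 0.10, adjusted p = 5.2e-08), and 365 and 373 and 152 and 161 in MV-4-11 (-1.30 ± 0.10, adjusted p = 1.2e-09). RPL22L1 went from 134 and 128 to 25.3 and 21.6 and 9.83 and 9.85 CPM in MOLM-13 (-2.61 ± 0.10, adjusted p = 4.3e-14 after 24 h; -3.92 ± 0.11, adjusted p = 7.4e-17 after 72 h). In MV-4-11 RPL22L1 went from 353 and 369 to 185 and 189 and 116 and 110.0 CPM (-1.73 ± 0.090, adjusted p = 1.7e-12). In THP-1 it began at 13.8 and 11.0 CPM and was 8.35 and 7.85 after 72 h (-0.69 ± 0.13, adjusted p = 8.7e-05), while RPL22 did not pass (0.12 ± 0.10, adjusted p = 0.338). RPL22L1 groups did not overlap with DMSO in any line.

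RPL39, a short protein at the exit tunnel, and RPL39L, its paralogue of the testis, both fell in MOLM-13 after 72 h (-1.42 ± 0.22 and -1.95 ± 0.26) and in MV-4-11 (-1.26 ± 0.22 and -0.67 ± 0.22), the last a call that was lost without DMSO replicate 1 or 72 h replicate 2 (adjusted p = 0.121 and 0.103). In THP-1 RPL39L fell (14.4 and 14.7 CPM with DMSO, 6.36 and 8.89 after 72 h; -1.02 ± 0.23, adjusted p = 7.8e-04) and RPL39 did not pass (-0.12 ± 0.23, adjusted p = 0.662). RPL3L had 21 and 15 reads in MV-4-11 with DMSO, 16 and 19 after 24 h and 8 and 24 after 72 h. In MOLM-13 it had 0 reads with DMSO and after 24 h, and 3 and 1 after 72 h. In THP-1 it had at most 1 read per library with DMSO and BRM014, so that no fold is given for these 2 lines.

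From 24 h to 72 h of BRM014 the fall went on in MOLM-13 and MV-4-11. In MOLM-13 61 of 79 fell between these times, beside 22.7% of all genes, with a median of -0.72. In MV-4-11 72 fell, beside 16.9%, with a median of -0.84, and in THP-1 24 fell, beside 16.5%, with a median of -0.31. In each of the 3 comparisons 0 rose by edgeR, beside 20.8%, 18.6% and 16.2% of all genes (0 also at an unadjusted p under 0.05, and 0 by DESeq2). RPS12 was among the 3 lowest in each, at -1.32 ± 0.13, -1.29 ± 0.13 and -0.63 ± 0.13 in the order of the lines, as was RPL39L in MOLM-13 (-1.32 ± 0.27) and THP-1 (-0.71 ± 0.23) and RPLP0 in THP-1 (-0.60 ± 0.11). RPS21 was another of the lowest in MV-4-11 (-1.22 ± 0.22). The thinly counted RPS10 was among the lowest in MOLM-13 without passing (-1.68 ± 0.88). RPS27 (0.072 ± 0.23) and RPS20, a protein of the small subunit's head (-0.085 ± 0.13), did not pass between the times in MOLM-13. RPS27L fell back in MV-4-11 (-0.29 ± 0.099, adjusted p = 0.0287), a call lost without replicate 1 of either time (adjusted p = 0.264 and 0.28). The THP-1 count was 10 without 24 h replicate 1, 40 without PMA replicate 1 and 58 without the PMA and DB2313 libraries. The RPL39L call in THP-1 was lost without either 24 h library or 72 h replicate 1 (adjusted p = 0.0668 to 0.23).

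The size of the BRM014 effect differed between lines for most members. It did so for 65 of 79 at 24 h (edgeR F test of both differences, 43.5% of all genes called) and for 71 at 72 h (52.9% of all genes). At 24 h 43 passed without THP-1 24 h replicate 1. The log2 fold change was higher in THP-1 than in MOLM-13 for 77 of 79 at 24 h and 78 at 72 h, with medians of 0.76 and 1.20 on the log2 scale for that difference. Against MOLM-13, MV-4-11 differed less, with medians of 0.24 and 0.14. RPL3 had the smallest p at both times, with a difference of 1.00 at 24 h (adjusted p = 3.5e-05) and 1.89 at 72 h (adjusted p = 4.5e-09) for THP-1 against MOLM-13. RPLP0 differed by 1.46 at 72 h (adjusted p = 2.2e-07) and RPL22 by 1.08 (adjusted p = 2.0e-07). RPS26, RPL36A, RPL38, RPS10, RPS18, RPL17 and RPL3L were among the 8 that did not pass at 72 h.

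Members that fell further in one line tended to do so in another. Across the 70 members with a median of at least 100 CPM, the 72 h fold changes of MOLM-13 and MV-4-11 had a Pearson r of 0.84, those of MOLM-13 and THP-1 of 0.60 and those of MV-4-11 and THP-1 of 0.61. At 24 h the same values were 0.43, 0.19 and 0.46. These are descriptions across genes, which share libraries and depth and are not independent replicates. RPL12 and RPLP0 stood near the low end in both MOLM-13 and MV-4-11, and RPS27, RPS20, RPS28 and RPL22 towards the high end in MOLM-13. RPS20 had -0.85 ± 0.13 in MOLM-13 and -1.15 ± 0.13 in MV-4-11, and RPS28 -0.98 ± 0.21 and -1.10 ± 0.21, all of which passed. In MV-4-11 RPL24, a protein of the bridge between the subunits, and RPL39L fell least among those that passed (-0.88 ± 0.14 and -0.67 ± 0.22).

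**Figure D4:**
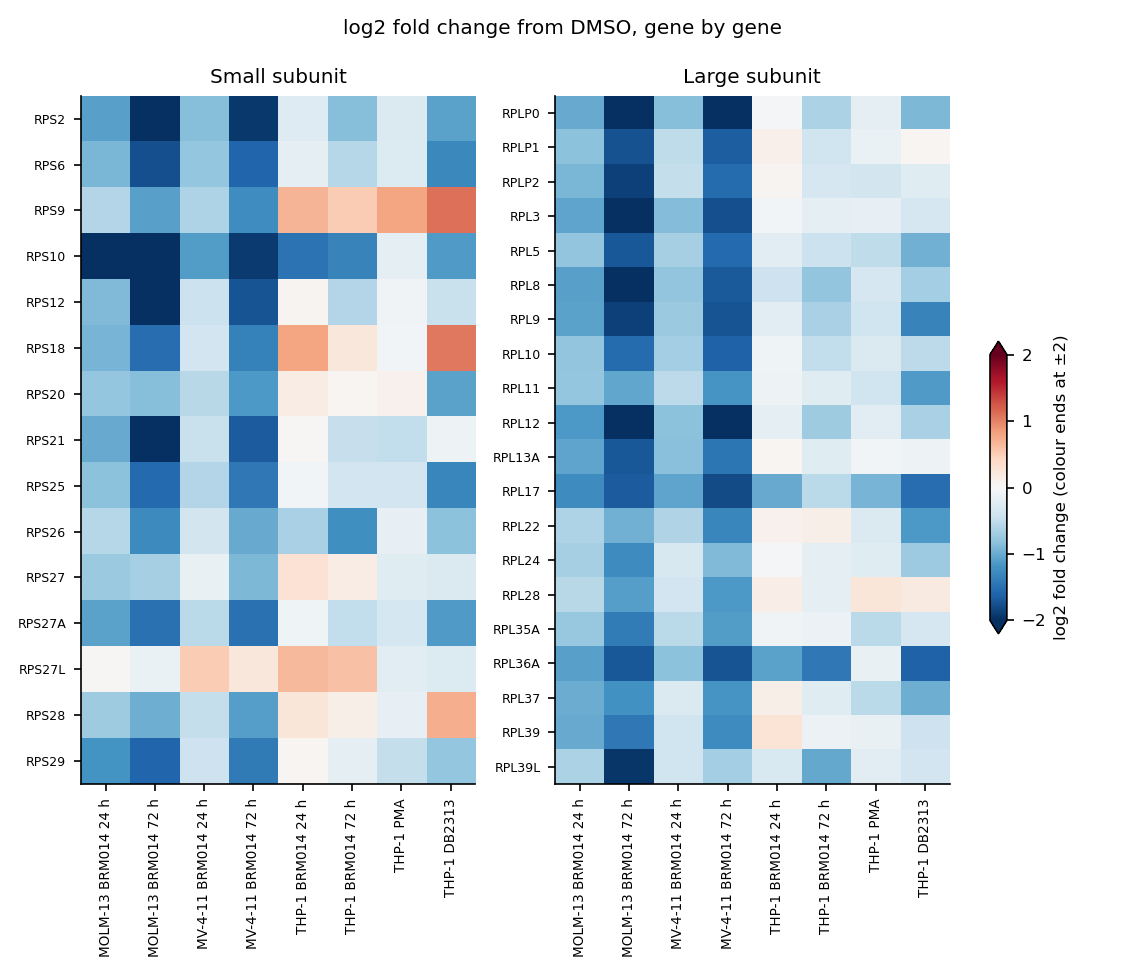
Log2 fold change from DMSO (colour, blue lower and red higher, ends at ±2) of 35 ribosomal protein genes with fold changes in the text (rows, small subunit on the left and large on the right) in 8 comparisons (columns); RPL3L is not drawn. The MOLM-13 and MV-4-11 72 h columns are blue for every gene shown except RPS27L, which is near 0 in MOLM-13 and above 0 in MV-4-11.

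Members with and without the TOP tract at a listed start fell by similar medians. After 72 h in MOLM-13 the 45 with the tract had a median of -1.58 and the 17 tested without it -1.44, and all 45 and 16 of 17 fell. In MV-4-11 the medians were -1.43 and -1.37 and again all 45 and 16 of 17 fell, and in THP-1 the medians were -0.35 and -0.29, with 20 and 8 that fell. The gene without a fall among the 17 was RPS27L in the first 2 lines. The split rests on where the start is listed and on the length asked of the tract. RPL3, with a run of 4 such bases at its start, was counted as without it. So was RPL19, which has a listed start inside a longer run of C and T. The medians therefore cannot show whether the tract matters. The difference between both kinds of start was not tested.

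With PMA 71 of the 79 members had a negative log2 fold change in THP-1, but they passed as lower at about the rate of all genes. The 2 PMA libraries differed, with ribosomal protein shares of 4.08% and 5.48%, both below the 5.95% and 6.01% of DMSO. Of 79 members 13 fell, beside 17.1% of all genes, and 1 rose (18.9% of all genes rose), with a median of -0.24 beside -0.018 over all genes. RPL5 had 1841 and 1912 CPM with DMSO and 1146 and 1345 with PMA and fell (-0.50 ± 0.088, adjusted p = 1.2e-04). RPL35A fell (-0.54 ± 0.16, adjusted p = 0.0119), and RPL37 (-0.54 ± 0.25, adjusted p = 0.0929) and RPL17 (-0.94 ± 0.42, adjusted p = 0.0902) lay lower still without passing, as did RPL3L, which had 1 and 0 reads with DMSO and 0 with PMA. RPS9 rose (0.79 ± 0.27, adjusted p = 0.028), on 4.26 and 3.56 CPM with DMSO and 8.05 and 4.69 with PMA, while RPL28 lay high without passing (0.24 ± 0.15). The RPS9 call was lost without either DMSO library or PMA replicate 1, and the RPL35A call without DMSO replicate 1 or PMA replicate 1 (adjusted p = 0.0573 to 0.371). The count depended on single libraries, as 1 member fell without PMA replicate 1 and 58 fell without PMA replicate 2, and on the settings, with 39 by library size alone and 46 with no low-count filter. Both PMA libraries lay below both DMSO libraries in CPM for 57 members, beside 36.8% of all genes tested.

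Most members were lower with DB2313 than with DMSO. Whether these libraries were prepared together is not given, so a batch cannot be told apart from the drug. The ribosomal protein shares with DB2313 were 4.73% and 3.45%, again unlike each other and below both DMSO libraries. Of 79 members 56 fell, beside 29.5% of all genes, and 3 rose (35.9% of all genes rose), with a median of -0.60 beside 0.14 over all genes. Among those that fell furthest were RPL9, with 492 and 519.8 CPM with DMSO and 244 and 175 with DB2313 (-1.34 ± 0.13, adjusted p = 1.6e-08), and the thinly counted RPL36A and RPL17 (-1.62 ± 0.18 and -1.53 ± 0.43). RPS6 (-1.28 ± 0.11, adjusted p = 2.7e-09), RPL22 (-1.15 ± 0.10, adjusted p = 5.5e-09) and RPL11 (-1.13 ± 0.17, adjusted p = 6.9e-06) also fell. RPS27L, which BRM014 raised in this line, fell (46.7 and 43.3 CPM with DMSO, 42.0 and 36.6 with DB2313; -0.27 ± 0.11, adjusted p = 0.03), a call that was lost by DESeq2 (adjusted p = 0.0586), when scaled to library size alone (0.0933) and without DMSO replicate 1 or DB2313 replicate 2 (0.153 and 0.311). Without DB2313 replicate 1 68 members fell, and without replicate 2 38 did. RPL17 did not pass without DB2313 replicate 2 (adjusted p = 0.0764).

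The members that rose with DB2313 were RPS28, RPS9 and RPL3L. RPS28 had 96.3 and 102 CPM with DMSO and 224 and 120.4 with DB2313 (0.72 ± 0.22, adjusted p = 0.00621). RPS9 had 9.62 and 8.07 CPM with DB2313 (1.11 ± 0.27, adjusted p = 0.00119), and RPL3L had 1 and 0 reads with DMSO and 10 and 19 with DB2313 (adjusted p = 0.00323). RPS28 and RPS9 libraries did not overlap with those of DMSO. RPS28 did not pass without DB2313 replicate 1 (adjusted p = 0.434). The quartiles of the 79 log2 fold changes were -0.90 and -0.29 with DB2313, and -0.57 and -0.20 after 72 h of BRM014.

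At 72 h BRM014 and DB2313 could be set directly against each other in THP-1, at 1 µM and 3 µM. As such 26 members were higher with BRM014, beside 30.4% of all genes, and 12 higher with DB2313, beside 30.9%. RPL22 lay highest with BRM014 relative to DB2313, with 474 and 487 CPM after BRM014 and 218 and 178 after DB2313 (1.27 ± 0.10, adjusted p = 1.6e-09). RPS20 (1.10 ± 0.13, adjusted p = 3.2e-07) and RPS25 (0.94 ± 0.15, adjusted p = 1.7e-05) were also higher with BRM014, as was RPS27L (0.86 ± 0.10, adjusted p = 4.8e-07). RPL17 also lay high without passing (0.99 ± 0.45). RPL39L was higher with DB2313 (-0.64 ± 0.23, adjusted p = 0.0225), as was RPL3L (adjusted p = 0.0034), and RPS18 did not pass (-0.84 ± 0.51, adjusted p = 0.163). The RPL39L call was lost without DB2313 replicate 1 or BRM014 72 h replicate 1 (adjusted p = 0.261 and 0.224). Without DB2313 replicate 1 the counts were 50 and 3, and without replicate 2 they were 19 and 22. The 2 treatments shared no library in this comparison, but whether they were prepared together is not given, so a batch cannot be told apart from the drug.

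Most of the ribosomal protein genes and paralogues listed outside the name rule fell after 72 h of BRM014. Of these 7 genes, 7 fell in MOLM-13, 5 in MV-4-11 and 4 in THP-1. Over all genes 29.4%, 26.1% and 28.0% fell in the same order. RPSA, a small-subunit protein, fell in the 3 lines (-1.96 ± 0.11, -2.26 ± 0.11 and -0.91 ± 0.11). FAU, made as a fusion with a ubiquitin-like protein, fell too (-1.05 ± 0.16, -1.08 ± 0.16 and -0.49 ± 0.16), but its THP-1 call was lost without 72 h replicate 1 (adjusted p = 0.105). RPL7L1 had the lowest value of the 7 in THP-1 after 24 h (-0.66 ± 0.059, adjusted p = 1.2e-08) and with PMA (-0.42 ± 0.059, adjusted p = 1.0e-05), and RPL26L1 was the one that rose, in THP-1 after 24 h (0.45 ± 0.14, adjusted p = 0.0144), a call lost without DMSO replicate 2 or 24 h replicate 1 (adjusted p = 0.112 and 0.171).

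Elongation factors and other messengers with a known TOP tract moved with them. Of 18, 16 fell in MOLM-13, 16 in MV-4-11 and 10 in THP-1 after 72 h, with medians of -1.15, -1.08 and -0.32. The shares of all genes that fell were 29.4%, 26.1% and 28.0%. EEF2, which moves the ribosome along, went from 7011 and 7583 to 2315 and 2205 CPM in MOLM-13 (-1.88 ± 0.097, adjusted p = 9.0e-13) and from 5278 and 5388 to 1940.1 and 1998 in MV-4-11 (-1.50 ± 0.096, adjusted p = 4.3e-11). EEF1B2 fell furthest of the list in MOLM-13 (-2.12 ± 0.10) and PABPC1, the poly(A)-binding protein, in MV-4-11 (-1.87 ± 0.066). TPT1 rose in MOLM-13 (0.76 ± 0.086, adjusted p = 1.7e-07) and in THP-1 (0.35 ± 0.086, adjusted p = 0.00144). EEF1D had the largest fall of the list in THP-1 (-3.23 ± 0.98, adjusted p = 0.00806), but its DMSO libraries had 10.3 and 72.8 CPM, and the call was lost without DMSO replicate 2 or 72 h replicate 1 (adjusted p = 0.394 and 0.0783). NPM1, a nucleolar chaperone, fell furthest with DB2313 (-1.30 ± 0.073).

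**Figure D5:**
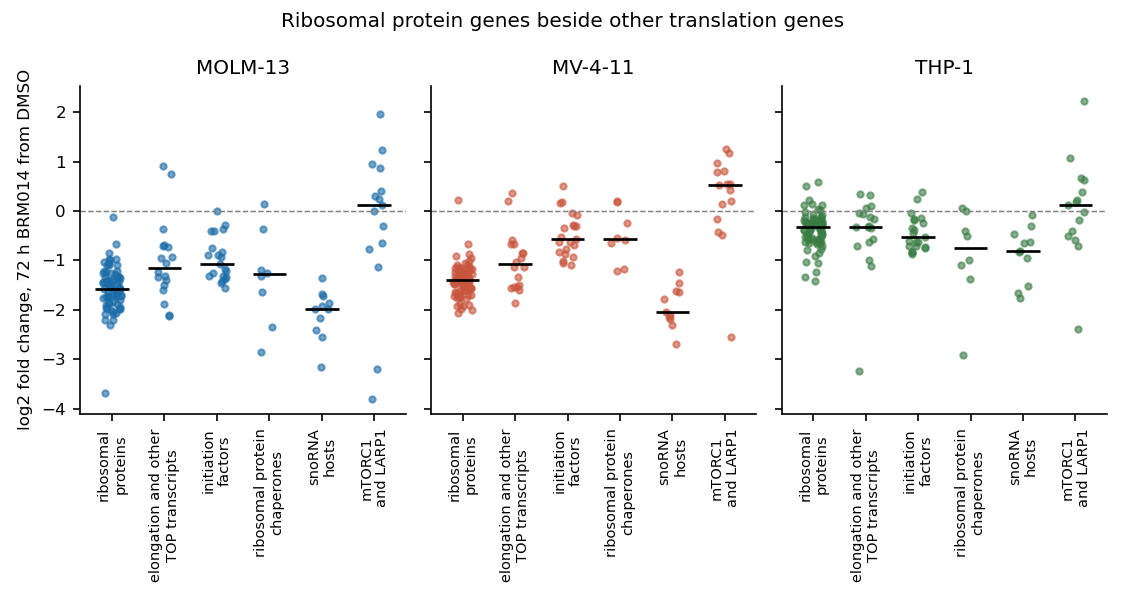
Log2 fold change from DMSO after 72 h of BRM014 (y axis) of the genes (points) of 6 lists in each line, with list medians as lines. The ribosomal protein genes lie around -1.58, -1.39 and -0.33, the snoRNA hosts around -1.97, -2.04 and -0.80, and the mTORC1 genes on both sides of 0.

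Of the initiation factors, 20 of 21 tested fell in MOLM-13 after 72 h (median -1.07). In MV-4-11 15 fell and 3 rose (median -0.56), and in THP-1 16 fell and 2 rose (median -0.52). Beside these and the counts that follow, 29.4%, 26.1% and 28.0% of all genes fell in the order of the lines. In that order 30.3%, 28.4% and 30.9% of all genes rose. EIF3B fell furthest in MOLM-13 (-1.56 ± 0.10), EIF3D in MV-4-11 (-1.09 ± 0.065) and EIF5B in THP-1 (-0.86 ± 0.14), while EIF1 rose in MV-4-11 (0.50 ± 0.080) and EIF4A2 in THP-1 (0.39 ± 0.068). Of the 8 genes listed as ribosomal protein chaperones, 7, 6 and 6 fell. They were led by PDCD2L in MOLM-13 and THP-1 (-2.86 ± 0.19 and -2.92 ± 0.23) and by PDCD2 in MV-4-11 (-1.21 ± 0.067). SnoRNA host genes, several of which also start with a TOP tract, fell in 11 of 11 tested in MOLM-13 (median -1.97), 11 of 11 in MV-4-11 (-2.04) and 9 of 11 in THP-1 (-0.80). SNHG15 fell furthest in the first 2 (-3.15 ± 0.18 and -2.68 ± 0.17) and SNHG1 in THP-1 (-1.75 ± 0.10).

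Genes of the mTORC1 pathway and LARP1 did not move one way. After 72 h 6 rose and 6 fell of 15 in MOLM-13, while 9 rose and 3 fell in MV-4-11, and 6 rose and 5 fell in THP-1. Of all genes 30.3% rose and 29.4% fell in MOLM-13. In MV-4-11 it was 28.4% and 26.1%, while THP-1 had 30.9% and 28.0%. EIF4EBP1, the repressor that mTORC1 switches off, fell in all 3 lines (-3.80 ± 0.18, -2.56 ± 0.18 and -2.38 ± 0.19), as did LARP1 (-0.65 ± 0.068, -0.49 ± 0.067 and -0.50 ± 0.067). TSC1, a brake on mTORC1, rose most in MOLM-13 (1.97 ± 0.080), RRAGC, which recruits mTORC1 to lysosomes, in MV-4-11 (1.25 ± 0.10) and DDIT4, an inhibitor of the pathway, in THP-1 (2.23 ± 0.17). Of the factors known at ribosomal protein promoters, MYC fell in the 3 lines, from 674 and 716 to 8.75 and 9.90 CPM in MOLM-13, from 1041 and 1058 to 38.1 and 41.8 in MV-4-11 and from 262 and 281 to 19.2 and 18.5 in THP-1. Its log2 fold changes were -6.41 ± 0.10, -4.77 ± 0.090 and -3.93 ± 0.091. At 24 h they were -3.44 ± 0.084, -3.01 ± 0.082 and -3.90 ± 0.090, and 75, 64 and 5 ribosomal protein genes fell in the same comparisons. A link between the 2 was not tested. SP3 rose most of that list in MV-4-11 and THP-1 (0.90 ± 0.10 and 0.68 ± 0.099) and SP1 in MOLM-13 (0.77 ± 0.092).

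Of 4 genes known to act in the response to free ribosomal proteins, 1 rose and 2 fell in MOLM-13, 2 rose and 1 fell in MV-4-11 and 3 rose in THP-1 after 72 h. The shares of all genes that rose were 30.3%, 28.4% and 30.9% in the same order, while 29.4%, 26.1% and 28.0% fell. Neither a difference of these 4 genes from all genes nor one between the lines was tested. CDKN1A, which arrests the cell cycle, rose in MV-4-11 (2.83 ± 0.087, adjusted p = 6.0e-16) and THP-1 (4.05 ± 0.093, adjusted p = 2.8e-17) and fell in MOLM-13 (-0.47 ± 0.080, adjusted p = 3.3e-05) after 72 h. MDM4, a partner of MDM2, rose in MOLM-13 (0.89 ± 0.11). Whether the changes in CDKN1A and RPS27L are linked was not tested.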

How the data were processed

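Polyadenylated RNA was sequenced in 22 libraries, and the authors deposited raw read counts per gene symbol, 1 file per library. Per the submitters' processing notes, HISAT2 2.1.0, HTSeq and DESeq2 were used with the hg38 build; the annotation and the strand setting are not given in the sources used here. Rows that name no gene (no feature, 12.0% to 19.2% of a file's counts, and ambiguous, 3.04% to 3.82%) were left out of library totals.

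The deposited counts were scaled by TMM and tested with edgeR 4.0.16 (limma 3.58.1, R 4.3.3) in 1 quasi-likelihood fit of the 11 groups, which gave 12 comparisons of 2 groups. filterByExpr with a minimum count of 10 kept 16794 genes, p-values were adjusted by the Benjamini-Hochberg method over all of them, and a call was an adjusted p under 0.05. F tests compared levels and effects between the lines. The printed CPM are counts over gene reads without TMM, so that a CPM and a fold change of a near-level gene can differ in direction. DESeq2 1.42.0 and other scalings, filters, sample sets, a replicate block and leave-one-out fits were alternatives. The script was tested on simulated data. Gene reads ran from 15893489 to 21565666 per library, and intervals were not formed for shares, which are compared over libraries.

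The members were taken by a name pattern that uses no values, but the pattern and the lists were chosen with earlier results of these data known. Named genes were the 3 highest and 3 lowest members by fold change in a comparison, the paralogues, the stalk and a fixed set with other roles, and per list the called genes with the largest rise and fall. RPS2, RPL8, RPL24, RPS20, RPS25, RPS26, RPS28, RPL13A among levels, EEF2, LARP1, RPSA, FAU and RPL22L1 were added after their values were seen. Results for some genes that the rule names are not reported here. Coordinates and promoter windows are from RefSeq on GRCh38.p14, which held 63 of the 80 genes. Groups carry replicate numbers 1 and 2, but same-numbered libraries did not deviate together (correlations from -0.117 to 0.0852 over 55 pairs of groups), so no pairing was used.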

Additional observations from a re-analysis of the deposited data

Results flagged for a closer look

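The effect of BRM014 on a ribosomal protein gene differed between the 3 lines, by edgeR's F test of both differences, for 65 of 79 members at 24 h and for 71 at 72 h. Over all genes the same test called 43.5% and 52.9%. The members' median fold change from DMSO was -0.81, -0.56 and -0.049 at 24 h and -1.58, -1.39 and -0.33 at 72 h in MOLM-13, MV-4-11 and THP-1. RPL3, RPL5, RPL22 and RPLP0 were among the genes with the smallest p. The lines also differed in their DMSO share, which was 12.5%, 10.8% and 5.98% of gene reads in the same order, and the effect and the starting share cannot be told apart with 3 lines.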

How the results depend on the processing

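In MOLM-13 and MV-4-11 DESeq2, the other scalings and filters, the line alone and the replicate block left each count that fell within 1.5 times the main count. Leaving out single libraries moved these counts too, most in MV-4-11 after 24 h, as given below. Precision is limited by 2 libraries per group and, for RPS9, RPS10, RPS18, RPL17, RPL36A and RPL3L, by few reads. Scaling to library size alone moved the median of all genes in MOLM-13 after 72 h by 0.16, and by less than 0.1 elsewhere. That median was 0 with TMM in MOLM-13 and MV-4-11 and may understate the shift of genes with reads. In MOLM-13 the TMM factors were 0.906 and 0.886 with DMSO, and 0.975 and 0.981 after 24 h.

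With that scaling 1 member rose in MV-4-11 after 72 h and 39 fell with PMA. In THP-1 after 24 h 1 rose and 8 fell with DESeq2's size factors, 1 and 9 with TMM factors from the other genes, 1 and 10 with a minimum count of 50, 6 and 23 with no filter, 1 and 3 with THP-1 alone, and 23 fell without the PMA and DB2313 libraries, an alternative chosen after seeing the data. That alternative gave 60 that fell after 72 h in THP-1 and 58 from 24 h to 72 h. With no filter 62 and 55 fell in these comparisons, 2 rose and 46 fell with PMA, 5 rose with DB2313, and 42 were higher with BRM014 than with DB2313. With THP-1 alone 14 fell from 24 h to 72 h, 0 rose and 3 fell with PMA, and 7 were lower with BRM014 than with DB2313. The cause was not tested.

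Leaving out each library in turn, which leaves a group with 1 library taken to vary like the others, gave 68 to 76 that fell after 24 h and 74 to 77 after 72 h in MOLM-13. In MV-4-11 it gave 44 to 68 and 75 to 77, with 0 to 1 that rose after 72 h. In THP-1 2 to 13 fell and 1 to 2 rose after 24 h, and 26 to 51 fell after 72 h. From 24 h to 72 h 55 to 64, 62 to 74 and 10 to 40 fell in the order of the lines. With PMA 1 to 58 fell and 0 to 2 rose, with DB2313 38 to 68 fell and 2 to 5 rose, and between BRM014 and DB2313 19 to 50 were higher and 3 to 22 lower. The F tests called 72 to 75 for DMSO levels, 43 to 70 at 24 h and 68 to 72 at 72 h. The share difference stayed between -2.95 and -2.66 points at 24 h and between -5.35 and -5.06 at 72 h.

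Some directions turned. RPS27L in MOLM-13 after 24 h was at -0.020 with TMM factors from the other genes, -0.022 with no filter, -0.021 without DMSO replicate 1 and from -0.034 to 0.073 over all libraries left out, and after 72 h at 0.064 by library size alone. RPS27 was at 0.041 in MV-4-11 after 24 h without 24 h replicate 2 and at -0.38 without replicate 1, and from 24 h to 72 h in MOLM-13 at -0.022 and -0.0060 without replicate 2 of either time. With PMA RPL28 was at -0.10 without PMA replicate 2 and at 0.52 without replicate 1. The median of the members was 0.0092 in THP-1 after 24 h without 24 h replicate 2 and -0.022 between BRM014 and DB2313 without DB2313 replicate 2 (0.48 without replicate 1).

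With the replicate block 34 fell after 72 h in THP-1, 11 with PMA and 56 with DB2313, and 63 passed the F test at 24 h; the block changed no count by over 1.5 times.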

Other observations

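The other translation genes were also low with DB2313 in THP-1, where 29.5% of all genes fell and 35.9% rose. Of the 18 elongation factors and other TOP messengers 13 fell (median -0.66), of 21 tested initiation factors 19 fell and 1 rose (median -0.64), and of the 8 ribosomal protein chaperones 7 fell (median -0.99). EIF3J, which helps to split ribosomes, fell furthest of the initiation factors (-1.34 ± 0.082) and PDCD2L of the chaperones (-2.01 ± 0.21). Of the snoRNA hosts, SNHG15 fell by 1.00 ± 0.16, while SNHG12 rose (0.82 ± 0.17). Of the 11 snoRNA hosts 8 fell and 2 rose. DDIT4 rose (3.74 ± 0.16), EIF4EBP1 fell (-2.23 ± 0.18) and MYC fell (-1.82 ± 0.080).

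With PMA, where 17.1% of all genes fell and 18.9% rose, the counts were lower, and the difference from DB2313 was not tested. Of the 18 elongation factors and other TOP messengers 5 fell and 1, PABPC1, rose (0.20 ± 0.063), and of the 21 initiation factors 5 fell and 1, EIF1, rose (0.27 ± 0.081). Of the 8 chaperones 1, HEATR3, rose (0.38 ± 0.10). MYC fell (-0.92 ± 0.077), DDIT4 rose (1.56 ± 0.18) and SNHG12 rose (1.01 ± 0.17). The PMA libraries were unlike each other in ribosomal protein share, 4.08% and 5.48%, and the part of that in these counts was not tested.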
